A study of Mus musculus with 70 samples.

Results

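Transcript levels of 9 genes of the TGF-beta and BMP signalling family were examined in cells sorted from B16F10 mouse melanomas after histotripsy. They were Id1, Id2 and Id3, the inhibitory Smad genes Smad6 and Smad7, the corepressor gene Skil, the ligand gene Tgfb1 and the receptor genes Tgfbr1 and Tgfbr2. They were chosen by symbol, as 9 of 55487 named genes in each of 4 count tables, and the main reading was made in CD45- cells. The choice was made with levels in CD45- cells on day 3 in view. The values of that table are therefore given as a description, and calls of these genes there are not read as tests.

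TGF-beta and BMP ligands bind paired type I and type II receptor kinases, which phosphorylate Smad proteins that then enter the nucleus and regulate transcription. Several of their target genes switch the pathway down again. Smad6 and Smad7 block receptors and receptor-activated Smads, and SnoN, the product of Skil, represses Smad complexes on DNA. The Id genes are well-known BMP targets whose helix-loop-helix proteins hold E proteins off DNA and are linked to an undifferentiated, proliferative state in melanoma and to lineage decisions in lymphocytes and myeloid cells.

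B16F10, a pigmented mouse melanoma line, was grown on both flanks of C57BL/6 mice of both sexes, 6 to 8 weeks old when bought and assigned to groups without randomization. Histotripsy, a non-thermal focused ultrasound method that breaks up tissue mechanically, was used to ablate part of the tumor on 1 flank. Tumors were sorted into CD45- cells, which are tumor cells and the cells that support them, and CD45+ immune cells, and each library was a 3′ tag library with molecular identifiers. Control tumors came from sham-treated mice, histotripsy-treated tumors were the ablated ones, and histotripsy-abscopal tumors were the untreated ones on the other flank of ablated mice. The labels name no engineered allele and no drug for any group. The CD45- libraries numbered 4 control, 7 treated and 7 abscopal on day 3 after the procedure, and 11 control, 3 treated and 4 abscopal on day 7. The CD45+ libraries numbered 4, 6 and 7 on day 3, and 10, 3 and 4 on day 7. The labels do not say which libraries came from the same mouse, so p-values measure only the spread between these samples. Since B16F10 is a single transplanted line, spread between libraries of a group does not include spread between tumor lines.

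The 70 libraries held 887798 to 3820705 counted molecules. The sort was visible in the markers: Ptprc, which encodes CD45, had 0 to 3 counts in CD45- libraries and 929 to 2916 in CD45+ libraries. The summed level of 8 melanocyte lineage genes ran from 27583 to 42963 normalised counts (CPM) in CD45- cells and from 187 to 2803 CPM in CD45+ cells. The highest sums in CD45+ cells, 1407 and 2803 CPM, were those of abscopal replicates 1 and 4 of day 3. Keratinocyte and skeletal muscle markers summed to at most 2.98 and 3.38 CPM in any library. Levels are CPM throughout, counts per 1000000 counts of the library, and since 1 tag is counted per transcript they need no length correction. Log2 fold changes are from edgeR with TMM scaling, each with its standard error (SE), and "called" means an adjusted p under 0.05 over all genes tested. In bulk libraries, fewer cells of a type and less RNA per cell cannot be told apart.

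Smad6 was close to the detection limit throughout. It had 0 to 6 counts per library, at most 2.28 CPM in CD45- cells and 2.62 CPM in CD45+ cells, and no count in 5 of 36 and 13 of 34 libraries. It did not pass the filter on low counts in any table. The other 8 genes passed in all 4 tables, so every count of members below is out of 8. By position in GRCm38 (GENCODE M21), no other annotated gene overlapped any of the 9.

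Id3 lies at chr4:136143497-136145755 on the plus strand and Id2 at chr12:25093799-25097140 on the minus strand. Their promoters are shown because Id3 and Id2 were the members with the largest difference between treated and control tumors and with the highest level, respectively. Each sequence is RefSeq GRCm38.p6, 250 bases before to 50 after the annotated start, with capitals marking GTCT or its reverse complement AGAC, the short Smad box, and GGCGCC, a BMP-type GC element. The Id3 window is chr4:136143572-136143871 and the Id2 window is chr12:25096043-25096342, each printed along its own strand. These RefSeq starts lie inside the GENCODE bounds given above, so the windows do not begin at the GENCODE gene starts.
Id3 promoter: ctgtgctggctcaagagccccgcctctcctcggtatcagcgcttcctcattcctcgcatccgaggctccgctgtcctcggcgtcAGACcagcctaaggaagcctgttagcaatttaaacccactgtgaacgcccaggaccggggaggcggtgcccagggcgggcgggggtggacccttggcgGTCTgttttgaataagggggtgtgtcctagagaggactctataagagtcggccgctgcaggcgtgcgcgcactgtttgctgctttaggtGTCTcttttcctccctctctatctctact
Id2 promoter: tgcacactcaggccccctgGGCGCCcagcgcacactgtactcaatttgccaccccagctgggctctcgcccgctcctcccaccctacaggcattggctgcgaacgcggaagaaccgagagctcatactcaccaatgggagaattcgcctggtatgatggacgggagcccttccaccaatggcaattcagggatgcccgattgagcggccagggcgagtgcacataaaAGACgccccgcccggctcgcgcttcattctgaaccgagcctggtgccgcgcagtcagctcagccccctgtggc
The Id3 window held 2 GTCT and 1 AGAC and no GGCGCC, and the Id2 window held 1 AGAC and 1 GGCGCC. Of 32851 promoters of the same 300 bases, 28903 (88%) held GTCT on either strand and 3898 (11.9%) held GGCGCC. The short box was therefore common to most promoters, and its presence here is a description of the letters, not of binding. Of the 9 genes, 6 had an entry in the promoter table, and Id1, Skil and Smad7 were not among them.

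Among the ligand and receptor genes in CD45- cells on day 3, Tgfb1 was scarce and Tgfbr1 was level between groups. Tgfb1 at chr7:25687002-25705077 stood at 4.94, 5.17, 2.15 and 2.50 CPM in controls, at 1.56 to 4.0 CPM (median 2.66) in treated tumors and at 1.60 to 4.97 CPM (median 3.48) in abscopal tumors, all from 3 to 19 counts. The 3 groups overlapped, with a log2 difference of -0.39 (SE 0.37) for treated against control. Tgfbr1, the type I receptor gene at chr4:47353222-47414931, stood at 30.8, 25.8, 32.3 and 26.6 CPM in controls, 23.2 to 30 CPM (median 25.2) in treated and 16.5 to 34.5 CPM (median 23.8) in abscopal tumors. These ranges overlapped, and the treated difference was -0.15 (SE 0.16).

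Tgfbr2, the ligand-binding type II receptor gene at chr9:116084293-116175360, varied most within treated tumors. Controls stood at 11.1, 13.6, 12.9 and 7.49 CPM. Treated replicates 1 to 7 stood at 27.7, 16.7, 62.3, 5.49, 9.73, 31.2 and 15.1 CPM. Abscopal tumors ran from 7.74 to 14.4 CPM (median 11.5). Treated tumors were both above and below every control, with 5 of 7 above the highest control. The log2 difference was 1.1 (SE 0.46) against control and 1.09 (SE 0.38) against abscopal tumors, where abscopal against control was 0.01.

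The intracellular brakes were higher in treated tumors in the same cells. Smad7 (chr18:75367529-75395935), whose protein recruits ubiquitin ligases to the TGF-beta receptor, stood at 11.7, 15, 11.2 and 10.8 CPM in control replicates 1 to 4. In treated replicates 1 to 7 it stood at 43.5, 39.1, 29.2, 18.3, 27.5, 31.7 and 41.5 CPM. Abscopal tumors were in between, at 13.2 to 25.9 CPM (median 21.2). All 7 treated libraries were above all controls, while abscopal libraries overlapped both groups. The log2 differences were 1.43 (SE 0.24) for treated against control, 0.74 (SE 0.25) for abscopal against control and 0.69 (SE 0.19) for treated against abscopal.

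Skil (chr3:31095058-31122577) followed the same order at a higher level. It stood at 45.7, 46.5, 55.2 and 51.6 CPM in controls, 58.3 to 122 CPM (median 87.4) in treated and 48.2 to 81.1 CPM (median 64.9) in abscopal tumors. Every treated library was above every control, the nearest being treated replicate 3 at 58.3 CPM, and abscopal libraries overlapped both. The differences were 0.79 (SE 0.15), 0.40 (SE 0.15) and 0.40 (SE 0.12) on the log2 scale, in the same order as for Smad7.

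Of the Id genes, Id3 had the largest difference of the 8 genes. Control replicates 1 to 4 stood at 4.94, 8.45, 22.4 and 15.4 CPM. Treated replicates 1 to 7 stood at 72.7, 89.3, 46.3, 49.7, 24.3, 47.2 and 96.0 CPM. Treated libraries all lay above the controls, although treated replicate 5 (24.3 CPM) lay next to control replicate 3 (22.4 CPM), and controls themselves spread widely. Abscopal tumors ran from 12.8 to 28.3 CPM (median 17.4) and overlapped both. Treated tumors were 4.61-fold above control (log2 2.21, SE 0.36) and 1.68 (SE 0.28) above abscopal tumors on the log2 scale, and abscopal tumors differed from control by 0.53 (SE 0.37).

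Id1 (chr2:152736251-152737410) stood at 5.55, 7.51, 20.3 and 15.4 CPM in control replicates 1 to 4, with replicates 3 and 4 high for both Id1 and Id3. Treated replicates 1 to 7 stood at 19.3, 45.2, 18.8, 29.3, 18.3, 20.8 and 31.3 CPM. Abscopal tumors were narrow, from 8.36 to 11.1 CPM (median 9.15). Treated and abscopal tumors did not overlap, whereas control replicate 3 reached into the treated range. The log2 differences were 1.08 (SE 0.28) against control, 1.48 (SE 0.24) against abscopal tumors and -0.40 (SE 0.30) for abscopal against control.

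Id2 was the most abundant of the 9 genes in every group. It stood at 1146, 1258, 931 and 1064 CPM in controls, at 2075, 1783, 1329, 1486, 1701, 1619 and 1982 CPM in treated replicates 1 to 7, and at 961 to 1259 CPM (median 1108) in abscopal tumors. Treated libraries were above every library of the other groups, whose ranges nearly coincided. The log2 differences were 0.63 (SE 0.13), 0.62 (SE 0.11) and 0.01 for treated against control, treated against abscopal and abscopal against control. Over the 6 group and day combinations of CD45- cells, day 3 treated tumors had the highest median of Id1, Id2, Id3, Smad6, Smad7, Skil and Tgfbr2. For Id2 alone did that group not overlap the next one in the order.

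**Figure D1:**
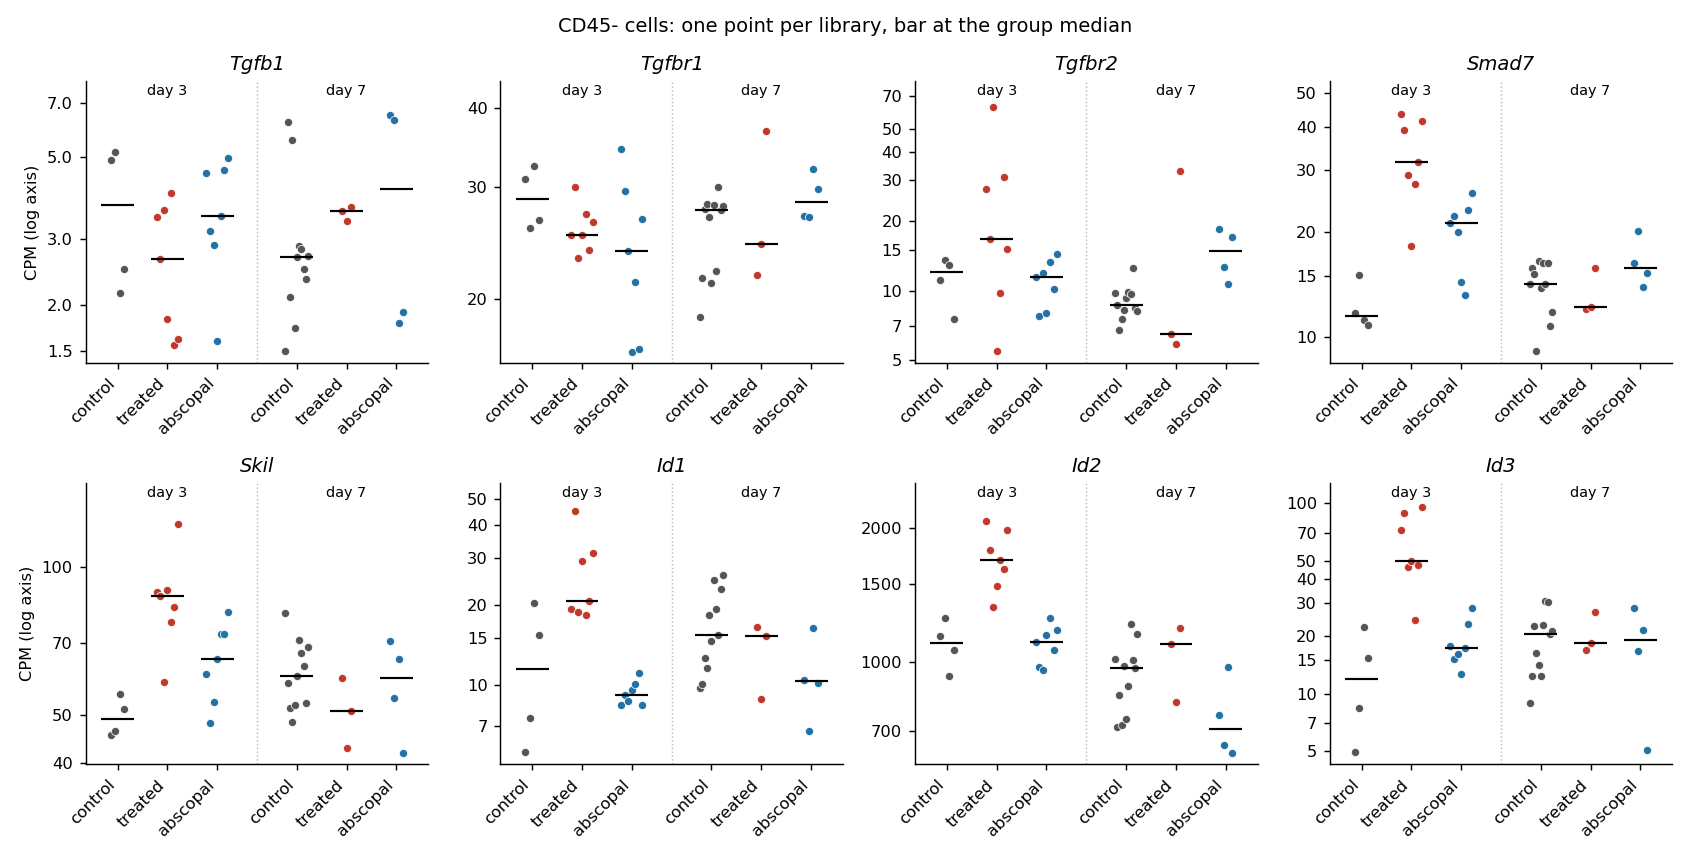
Level in CPM (log axis) of 8 genes in CD45- cells, 1 point per library and a bar at the group median, by group and day. Treated tumors on day 3 lie above all controls for Smad7, Skil, Id2 and Id3, at 24.3 to 96.0 CPM for Id3 against 4.94 to 22.4 CPM, while on day 7 the groups overlap.

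In this table, 3 of the 8 genes were called for treated against control beside 0.0916% of 10921 genes, 0 for abscopal against control beside 0%, and 3 for treated against abscopal beside 0.147%. DESeq2 called 4, 0 and 4, and 6, 2 and 6 had an unadjusted p under 0.05, beside 10.6%, 5.19% and 13.5% of all genes. The genes were chosen from these contrasts, so nothing is read from the counts. The first count also turned on the 4 controls: it was 0 without control replicate 1, 2 or 4 and 1 without replicate 3. The third was 0 without abscopal replicate 1 or 3. The treated range did not overlap the control range for 4 genes (Id2, Id3, Smad7 and Skil), beside 1.25% of all genes. It did not overlap the abscopal range for 2 (Id1 and Id2), beside 0.522%. The median log2 difference of the 8 genes was 0.94, 0.02 and 0.65 in the 3 comparisons, where the median over all genes was 0.01, 0 and 0.01.

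Fibroblast markers also differed between these libraries. The summed level of 9 fibroblast genes, among them Col1a1, Col3a1 and Dcn, was 308.5, 1108, 84.89 and 18.3 CPM in controls. In treated replicates 1 to 7 it was 5977, 2137, 13760, 58.89, 258.6, 2692 and 1106 CPM, and in abscopal tumors it was 150.9 to 850.6 CPM. Treated tumors thus held both the highest sums and 2 of low level. Endothelial sums ran from 59.5 to 145 CPM in controls and 52.3 to 132 CPM in treated tumors, and mural cell sums from 7.33 to 23.0 and 5.85 to 111 CPM. Erythroid sums ran from 3.08 to 59.1 CPM in controls and 23.7 to 352 CPM in treated tumors, highest in replicates 4 and 5, and their part in the differences was not tested. Immune markers in CD45- libraries summed to at most 19.0 CPM.

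Tgfbr2 was high in the same treated libraries as the fibroblast markers, being highest in replicate 3 (62.3 CPM) and lowest in replicate 4 (5.49 CPM). The 2 treated libraries of lowest fibroblast sum, replicates 4 and 5 (58.89 and 258.6 CPM), had 49.7 and 24.3 CPM of Id3, the second being the lowest of the treated group. They had the 2 lowest treated values of Smad7, 18.3 and 27.5 CPM, and 90.0 and 77.2 CPM of Skil. Replicate 3, of highest sum (13760 CPM), had 46.3 CPM of Id3, 29.2 CPM of Smad7 and 58.3 CPM of Skil. Its Smad7 was the next above that of replicate 5, and its Skil was the lowest of the treated group. For Skil, replicate 4 lay above the treated median of 87.4 CPM and replicate 5 below it. With only the libraries under 1000 CPM of fibroblast markers (3 control, 2 treated and 7 abscopal, a limit chosen after the sums were seen), treated against control was 1.27 for Id3, 1.01 for Smad7, 0.71 for Id1, 0.68 for Skil and 0.57 for Id2 on the log2 scale, and -0.45 for Tgfbr2. Treated against abscopal was then 1.29 for Id1, 0.90 for Id3, 0.47 for Id2, 0.30 for Skil, 0.14 for Smad7 and -0.59 for Tgfbr2. The sign of the Tgfbr2 difference thus turned in these libraries. The other 5 genes named had the same sign as before at a smaller size, and none was called in either comparison. Their SE against control ran from 0.16 (Id2) to 0.37 (Id3). For Smad7 against abscopal tumors the SE of 0.23 was larger than the difference of 0.14. The part of fibroblast RNA in the full differences was not tested.

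**Figure D2:**
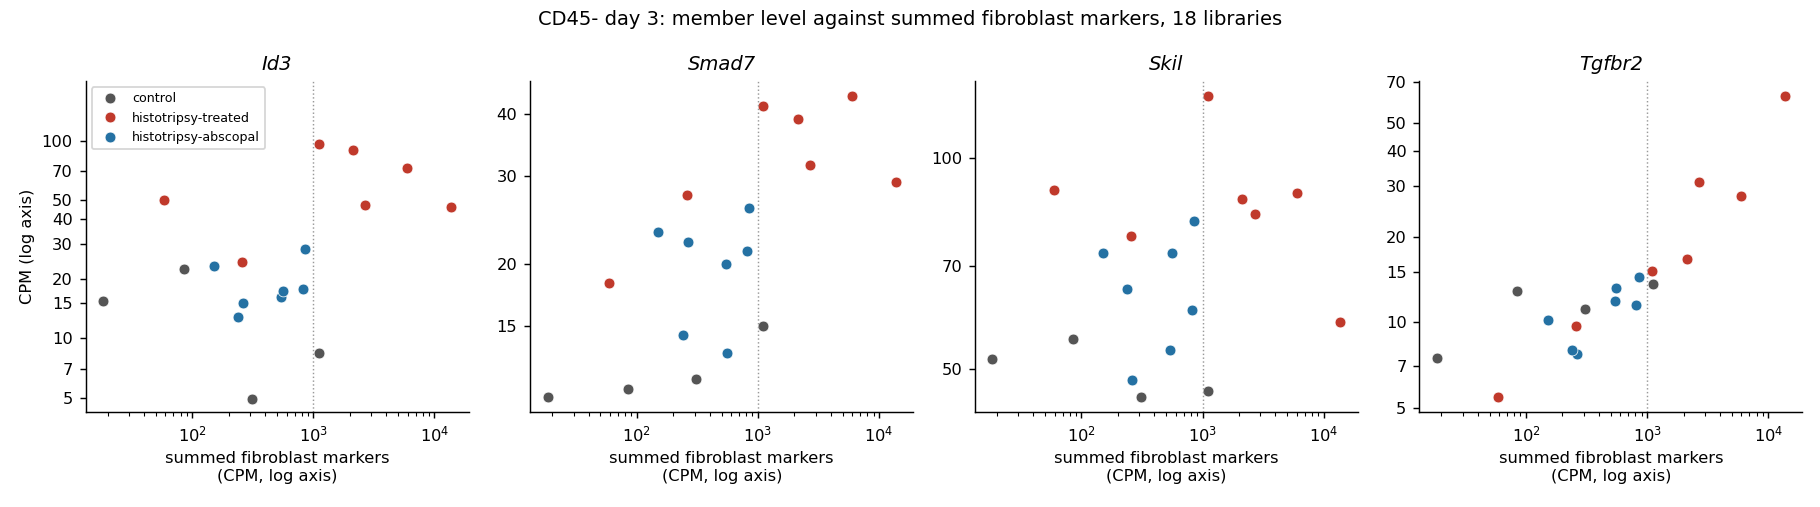
Level of Id3, Smad7, Skil and Tgfbr2 in CPM against the summed level of 9 fibroblast markers in CPM (both log axes) in the 18 CD45- libraries of day 3, coloured by group, with a dotted line at 1000 CPM. Tgfbr2 climbs with the marker sum to 62.3 CPM, and the 2 treated libraries left of the line have 49.7 and 24.3 CPM of Id3 and 18.3 and 27.5 CPM of Smad7.

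The genes whose levels most resembled that of Id3 were sought among 8208 others with a mean of at least 10 CPM, by Pearson r of log2 CPM over the same 18 libraries. They were Id1 (r = 0.87), Skil (0.839), Abhd2 (0.822), Txnrd1 (0.814), which encodes thioredoxin reductase, and Smad7 (0.798). For Smad7 they were Id3 (0.798), Tceanc2 (0.798), the collagen gene Col6a1 (0.776), the imprinted non-coding RNA gene H19 (0.764) and Actr3-ps (0.763), an annotated pseudogene whose tags could stem from Actr3. These values share the libraries, their depth and the group differences. After group means were removed, r with Id3 was 0.747 for Id1, 0.563 for Skil, 0.562 for Abhd2, 0.495 for Txnrd1 and 0.379 for Smad7. In the other tables the same within-group r of Id3 was 0.34, 0.362 and 0.086 with Id1 and 0.037, 0.608 and -0.235 with Smad7 (CD45- day 7, CD45+ day 3 and CD45+ day 7), so the order of the genes was not the same from table to table.

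On day 7 the CD45- cells showed no called difference in these genes. Of 8 genes, 0 were called by edgeR in each of the 3 comparisons, beside 0%, 0.291% and 0% of 10996 genes for treated against control, abscopal against control and treated against abscopal. DESeq2 called 0 in each, and 1, 3 and 1 had an unadjusted p under 0.05, beside 6.07%, 9.56% and 6.74% of all genes. The median log2 difference was 0.11, 0.04 and -0.00, where the median over all genes was 0, -0.01 and 0. The SE of a member was at most 0.49, that of Tgfb1.

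Id3 on day 7 ran from 8.99 to 30.6 CPM (median 20.6) in controls and stood at 16.9, 18.5 and 26.8 CPM in treated and 28.3, 16.8, 21.7 and 5.08 CPM in abscopal tumors. All groups overlapped, with treated against control at 0.11 (SE 0.31, edgeR adjusted p = 0.994). Smad7 ran from 9.13 to 16.5 CPM in controls and stood at 12.0, 12.2 and 15.8 CPM in treated tumors (log2 -0.05, SE 0.18, edgeR adjusted p = 0.997). Its abscopal values of 16.3, 20.1, 13.9 and 15.2 CPM also overlapped the controls. Skil ran from 48.4 to 80.9 CPM in controls and stood at 59.5, 42.8 and 51.0 CPM in treated tumors, a difference of -0.21 (SE 0.16, edgeR adjusted p = 0.926). For these 3 genes the day 7 treated values lay within or below the control range.

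Id1 and Id2 were at the lower side in abscopal tumors of day 7. Id1 ran from 9.73 to 26 CPM (median 15.4) in controls and stood at 16.6, 8.82 and 15.3 CPM in treated and 10.4, 6.72, 16.4 and 10.2 CPM in abscopal tumors. Id2 ran from 714 to 1214 CPM in controls and stood at 1095, 810.1 and 1189 CPM in treated and 761, 650.2, 975 and 623 CPM in abscopal tumors. Both overlapped between groups. Abscopal against control was -0.65 (SE 0.25) for Id1 and -0.34 (SE 0.14) for Id2 on the log2 scale, with edgeR adjusted p = 0.37 and 0.401. With the replicate number added to the fit as a block they were -0.16 and -0.24. In the libraries of low fibroblast markers they were -0.37 and -0.28.

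The receptor and ligand genes on day 7 again varied with the library. Tgfbr2 ran from 6.73 to 12.5 CPM in controls and stood at 6.50, 5.88 and 33.1 CPM in treated tumors, the third of which had 4221 CPM of fibroblast markers against 212.1 and 90.29 CPM. The difference of 0.70 (SE 0.33, edgeR adjusted p = 0.817) became -0.45 without that library. In abscopal tumors Tgfbr2 stood at 18.5, 12.6, 10.7 and 17.1 CPM (log2 0.69, SE 0.30, edgeR adjusted p = 0.443), beside fibroblast sums of 2649, 1439, 75.06 and 465.9 CPM. Tgfb1 kept to 1.5 to 6.50 CPM and Tgfbr1 to 18.7 to 36.8 CPM over the 18 libraries, with overlapping groups.

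The immune fraction had more of most of these transcripts than the CD45- fraction. Tgfb1, which leukocytes are known to secrete, ran from 40.4 to 93.8 CPM (median 62.0) over 34 CD45+ libraries and from 1.5 to 6.50 CPM (median 2.89) over 36 CD45- libraries, a ratio of medians of 21.5. Smad7 ran from 66.4 to 151 CPM against 9.13 to 43.5 CPM (ratio 6.08) and Skil from 162 to 433 CPM against 41.9 to 122 CPM (ratio 3.88). For these 3 genes the fractions did not overlap in any library. Id1, Id2 and Id3 had ratios of 2.17, 2.11 and 2.15, Tgfbr2 of 3.36 and Tgfbr1 of 1.28, with overlapping ranges. The fractions come from separately deposited tables, so these ratios are levels set side by side and carry no test.

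In CD45+ cells on day 3, 3 of the genes rose in treated tumors. The genes were chosen with earlier results of these data known, so the p-values below are not those of genes picked blind to the data. Id1 rose with a log2 fold change of 1.23 (SE 0.33, edgeR adjusted p = 0.0234), Tgfbr1 with 1.04 (SE 0.24, edgeR adjusted p = 0.0121) and Skil with 0.78 (SE 0.19, edgeR adjusted p = 0.0165) against control. These 3 of 8 genes were called beside 7.8% of 10264 genes, and DESeq2 called 3. Scaling by library totals kept the 3 genes past the threshold, at 0.96, 0.78 and 0.53. It moved the median of all genes from -0.01 to -0.22 and the calls from 638 higher and 163 lower to 413 higher and 650 lower.

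Id1 stood at 16.4, 25.4, 24.2 and 35.1 CPM in control replicates 1 to 4. Treated replicates 1 to 6 stood at 33.7, 47.6, 81.4, 38.2, 38.3 and 62.8 CPM, and abscopal tumors ran from 14.9 to 52.7 CPM (median 31.6). All treated values but the first were above every control, and abscopal tumors overlapped both groups. Tgfbr1 stood at 26.9, 28.1, 30.1 and 29.0 CPM in controls and at 40.5, 56.5, 75.4, 34.4, 35.0 and 52.6 CPM in treated tumors. It was the 1 member whose treated and control values did not overlap, beside 8.41% of all genes. Abscopal tumors, at 29.5 to 44.9 CPM (median 33.6), overlapped both.

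Skil stood at 230.0, 262, 222 and 219 CPM in controls, at 253, 357, 433, 290.5, 309 and 369.8 CPM in treated replicates 1 to 6 and at 192 to 312 CPM (median 238) in abscopal tumors. Treated replicate 1 lay inside the control range and the other 5 above it. Against abscopal tumors, Skil was the 1 gene of 8 that rose (log2 0.57, SE 0.16, edgeR adjusted p = 0.0391), beside 5.44% of all genes. Id1 differed there by 0.87 (SE 0.27, edgeR adjusted p = 0.0632) and Tgfbr1 by 0.62 (SE 0.20, edgeR adjusted p = 0.0748). DESeq2 called 2 of 8 in that comparison, and with library totals edgeR called 0 and the split over all genes went from 500 higher and 58 lower to 345 and 89. The Skil call against abscopal tumors was lost in 9 of 17 fits that each left out 1 library. With replicate number as a block, Skil was not called there (0.59, edgeR adjusted p = 0.0528) and Id1 was (0.99, edgeR adjusted p = 0.0159). No label ties a number to a mouse, so this block may join libraries of different mice.

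Calls against control depended on single libraries for Id1 and Skil but not for Tgfbr1. Id1 was no longer called without control replicate 1, 2 or 3 or treated replicate 3, and Skil without control replicate 3 or 4. Tgfbr1 was called in all 17 fits that each left out 1 library. Treated libraries also differed in S100a8 and S100a9, the neutrophil and monocyte calprotectin genes: their summed level was 1786, 7232, 25270, 3968, 1181 and 3862 CPM in treated replicates 1 to 6, 323.4, 729.9, 2055 and 2460 CPM in controls and 707.8 to 2276 CPM in abscopal tumors. Replicate 3, the highest in S100a8 and S100a9, was also the highest in Id1, Tgfbr1 and Skil. Red cell transcripts, as the sum of 4 erythroid genes, were 105, 58.4, 6665, 1687, 456 and 504 CPM in treated replicates 1 to 6 and 67.4, 65.6, 164 and 919 CPM in controls, so replicate 3 was highest in these too. Without treated replicates 2 and 3, left out for sums over 5000 CPM after these were seen, the log2 fold changes were 0.89 for Id1, 0.65 for Tgfbr1 and 0.54 for Skil, with edgeR adjusted p = 0.113, 0.0586 and 0.0782. The part of myeloid or red cell RNA in these differences was not tested.

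Id3, Smad7 and Id2, which separated treated from control tumors in CD45- cells, had overlapping groups in CD45+ cells. Id3 stood at 57.7, 44.7, 31.4 and 35.9 CPM in controls, 18.8 to 45.4 CPM (median 39.2) in treated and 27.8 to 73.4 CPM (median 56.4) in abscopal tumors. Smad7 ran from 82.1 to 142 CPM in controls, from 66.4 to 118 CPM in treated and from 110.0 to 151 CPM in abscopal tumors, and Id2 from 2229 to 2893, 1688 to 3326 and 1613 to 3081 CPM. Treated against control was 0.01 for Id3 (SE 0.27, edgeR adjusted p = 0.983), 0.01 for Smad7 (SE 0.19, edgeR adjusted p = 0.979) and 0.08 for Id2 (SE 0.19, edgeR adjusted p = 0.841). Each sign flipped with library totals, to -0.20, -0.20 and -0.13, a scaling that moved the median of all genes from -0.01 to -0.22. Tgfb1 (0.33, edgeR adjusted p = 0.341) and Tgfbr2 (-0.06, edgeR adjusted p = 0.904) were not called either.

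**Figure D3:**
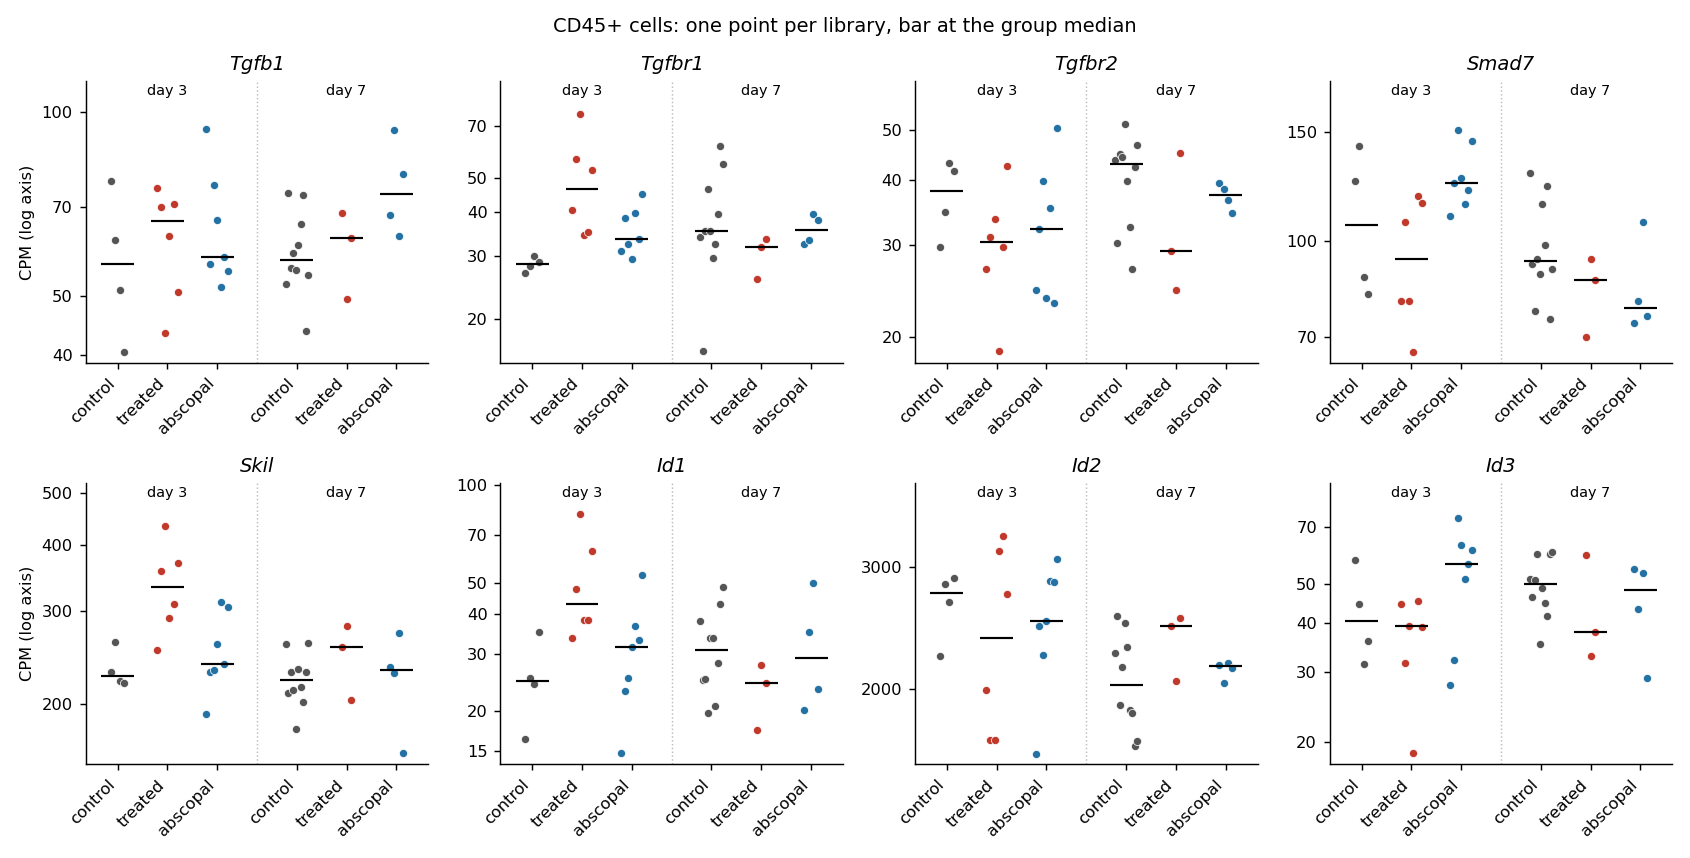
Level in CPM (log axis) of 8 genes in CD45+ cells, 1 point per library and a bar at the group median, by group and day. On day 3 the treated tumors hold the highest values of Id1 (81.4 CPM), Tgfbr1 (75.4 CPM) and Skil (433 CPM), and on day 7 the 3 groups overlap for every gene shown.

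Abscopal CD45+ cells showed no called member on day 3. Of 8 genes, edgeR called 0 beside 0% of all genes, and DESeq2 called 0. An unadjusted p under 0.05 was found for 0 of them, beside 7.76% of all genes. The largest differences from control were 0.42 for Tgfbr1 (SE 0.24, edgeR adjusted p = 0.683) and 0.39 for Id3 (SE 0.26, edgeR adjusted p = 0.714). This comparison and the treated one share their 4 controls.

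On day 7, the groups of CD45+ libraries overlapped for Id1, Tgfbr1 and Skil. Id1 ran from 19.7 to 48.5 CPM (median 30.9) in controls and stood at 17.5, 27.8 and 24.4 CPM in treated and 20.2, 35.1, 49.9 and 23.4 CPM in abscopal tumors. Tgfbr1 ran from 16.2 to 61.6 CPM in controls and stood at 25.9, 31.9 and 33.6 CPM in treated tumors. Skil ran from 179.9 to 261 CPM in controls and stood at 256, 281 and 204 CPM in treated tumors. No member was called by edgeR in any of the 3 comparisons, beside 0% of 10817 genes in each, and DESeq2 called 0. An unadjusted p under 0.05 was found for 0, 1 and 0 members, beside 3.18%, 7.4% and 2.68% of all genes. The 1 was Tgfb1 in abscopal tumors, at 67.7, 93.5, 62.6 and 79.2 CPM against 43.7 to 73.6 CPM in controls (log2 0.39, SE 0.14, edgeR adjusted p = 0.605).

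The difference between days was tested as an interaction over the CD45+ libraries of both days. The effect of treatment against control was lower on day 7 than on day 3 for Id1, by -1.70 on the log2 scale (SE 0.46, edgeR adjusted p = 0.0375), and for Tgfbr1, by -1.38 (SE 0.36, edgeR adjusted p = 0.0282). These 2 of 8 genes were called beside 2.7% of 11251 genes. With library totals the values were -1.45 and -1.14, with edgeR adjusted p = 0.0671 and 0.0567, and leaving out 1 library at a time lost the Id1 call in 8 and the Tgfbr1 call in 6 of 23 fits. Skil differed by -0.62 (SE 0.24, edgeR adjusted p = 0.183), and the other 5 genes had adjusted p of 0.647 or more. The days come from separately deposited tables, so the day and the table cannot be told apart for levels.

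**Figure D4:**
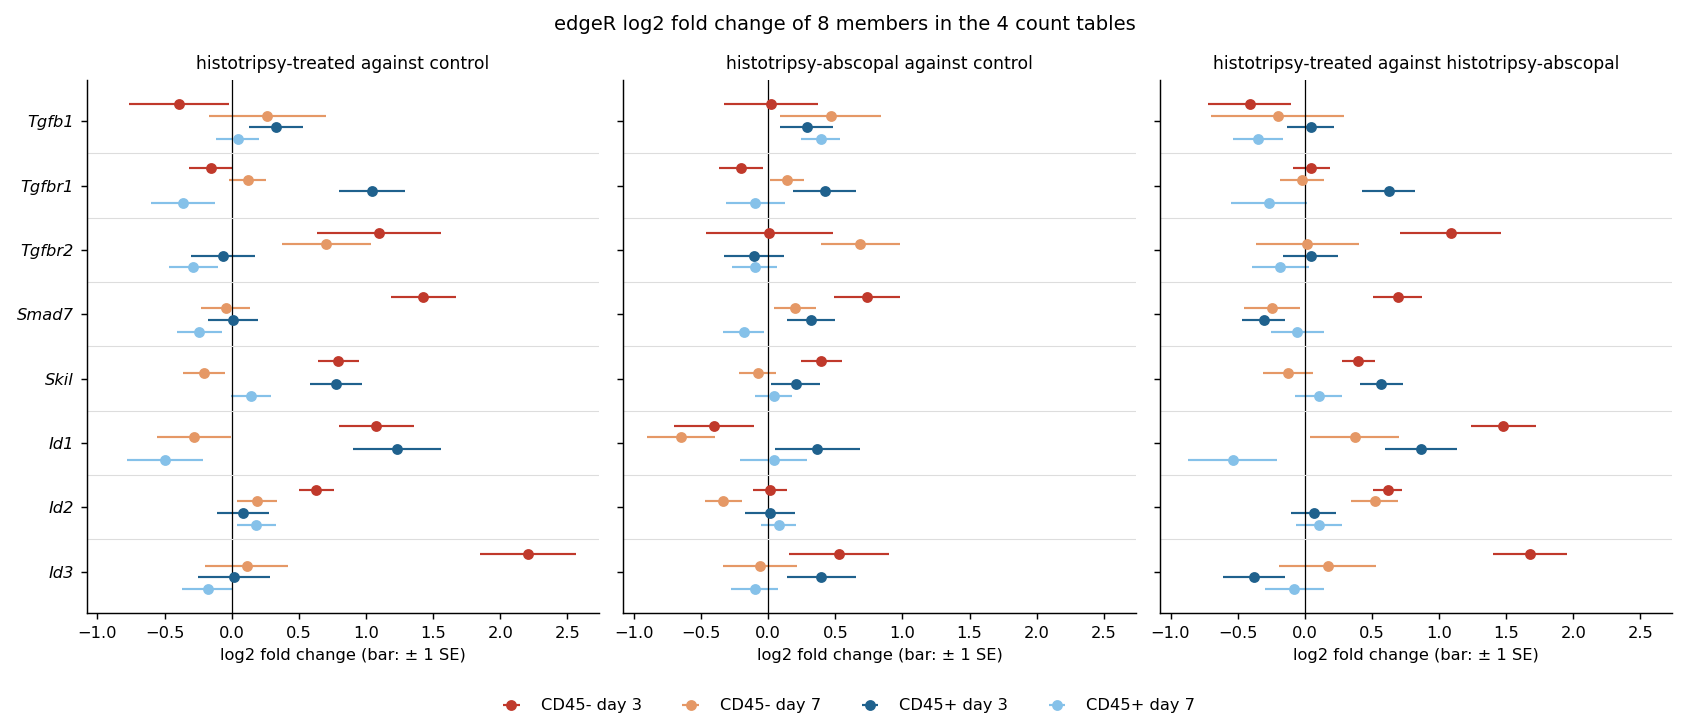
Log2 fold change (point) with 1 SE (bar) of 8 genes in the 4 count tables, for treated against control, abscopal against control and treated against abscopal. In CD45- cells on day 3 Id3 has the largest value (2.21) of treated against control, and in CD45+ cells on day 3 the largest are Id1 (1.23), Tgfbr1 (1.04) and Skil (0.78).

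The wider pathway was read from a list of 69 other genes, comprising ligands, receptors, Smads, inhibitors, latency and activation genes, targets and E proteins. The list was drawn up with earlier results of these data known, so its counts and shares are given as a description. In CD45- cells on day 3, 41 of them were tested and 0 were called in any comparison by edgeR. DESeq2 called 1, 0 and 1. For treated against control, abscopal against control and treated against abscopal, 12, 5 and 9 (29.3%, 12.2% and 22%) had an unadjusted p under 0.05, beside 10.6%, 5.19% and 13.5% of all genes. All 7 measured targets were higher in treated tumors than in control (median log2 0.66), 4 of them at an unadjusted p under 0.05, and 6 of the 7 were higher in abscopal tumors than in control (median log2 0.40). The fibroblast marker sums above were highest in the same treated libraries, and their part in the target levels was not tested. The median over all 41 pathway genes, treated against control, was 0.14. The 3 E protein genes, whose products the Id proteins bind, had a median of 0.01.

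Among the genes with the smallest p in that table were, for treated against control, the receptor-regulated Smad gene Smad5, with a log2 difference of -0.38 (SE 0.10, edgeR adjusted p = 0.179), and the TGF-beta-inducible Klf10, with 0.66 (SE 0.18, edgeR adjusted p = 0.193). Smad5 stood at 194 ± 26.2 CPM (SD, n = 7) in treated against 251 ± 1.79 CPM (SD, n = 4) in control tumors, and Klf10 at 35.9 ± 2.85 against 22.6 ± 5.13 CPM, both without overlap. The corepressor gene Ski followed with 0.35 (SE 0.11) and the procollagen proteinase gene Bmp1 with 1.97 (SE 0.67). Bmp1 ranged widely, at 22.6 ± 23.4 CPM (SD, n = 7) in treated tumors. For abscopal against control the 5 were Smad5 (-0.36), Ski (0.30), Pmepa1 (0.97), Cdkn1a (0.45) and Furin (0.36). For treated against abscopal Klf10 (0.55), Nbl1 (2.60), Bmp1 (1.66) and Furin (-0.38) were among them. None of these passed the threshold, with edgeR adjusted p from 0.106 to 0.959.

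On day 7, 39 pathway genes were tested in CD45- cells and edgeR called 0 in each comparison, with 4, 11 and 1 (10.3%, 28.2% and 2.6%) at an unadjusted p under 0.05, beside 6.07%, 9.56% and 6.74% of all genes, and 0 called by DESeq2. Of the 7 measured targets, 5, 6 and 0 were higher in the 3 comparisons (median log2 0.06, 0.31 and -0.22), and 1, 4 and 0 had an unadjusted p under 0.05. For treated against control the smallest p belonged to Cdkn1a (-0.50), Bmp1 (1.32), Smad4 (-0.24), Smad2 (-0.24) and Acvr1 (0.42). For abscopal against control Acvrl1 (-0.31), Thbs1 (1.17), Bmp1 (1.25) and Ltbp4 (1.27), the last 3 of which encode matrix or matrix-processing proteins, were among the smallest. For treated against abscopal it belonged to Acvrl1 (0.49), Thbs1 (-1.13), Tgfb3 (-0.74), Furin (-0.39) and Ccn2 (-0.78). The edgeR adjusted p of the genes named ran from 0.243 to 0.854.

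In CD45+ cells on day 3, 4 of 30 measured pathway genes rose against control and none fell, beside 7.8% of all genes called, 638 of 801 of them higher. DESeq2 called 5. They were Furin, a proprotein convertase that matures TGF-beta (0.67, SE 0.15, edgeR adjusted p = 0.0084), Ski (0.79, SE 0.18, edgeR adjusted p = 0.00933), Klf10 (1.01, SE 0.23, edgeR adjusted p = 0.0115) and Cdkn1a, the p21 gene (0.84, SE 0.20, edgeR adjusted p = 0.0123). Furin stood at 484 ± 68.7 CPM (SD, n = 6) after treatment and 356 ± 23.6 CPM (SD, n = 4) in controls, without overlap, and Ski at 82.0 ± 14.6 against 56.1 ± 3.81 CPM, also without overlap. Against abscopal tumors Cdkn1a (0.80), Furin (0.53), Klf10 (0.75) and Tgif1 (0.90), a Smad corepressor gene, rose, with edgeR adjusted p from 0.00553 to 0.0316. With library totals most of these calls against abscopal tumors were lost. Without the 2 treated libraries of highest S100a8 and S100a9, 2 genes were called against control and 0 against abscopal tumors.

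Abscopal CD45+ cells on day 3 had 0 called pathway genes by edgeR and DESeq2 and 3 (10%, beside 7.76% of all genes) at an unadjusted p under 0.05, the smallest p belonging to Itgb8 (1.34), Itgav (0.44), Ski (0.36), Lrrc32 (0.64) and Tcf12 (0.25). On day 7, 33 pathway genes were tested and both tools called 0 in each comparison, with 2, 5 and 3 (6.1%, 15.2% and 9.1%) at an unadjusted p under 0.05, beside 3.18%, 7.4% and 2.68% of all genes. For treated against control Gdf15 (0.82), Tcf4 (0.35), Lrrc32 (-0.58) and Tcf12 (-0.20) were among the smallest. For abscopal against control it belonged to Itgb8 (-1.88), Tgfbi (0.55), Acvrl1 (0.49), Smurf1 (0.57) and Pmepa1 (0.38). For treated against abscopal it belonged to Tgfbi (-0.62), Itgb8 (1.42), Gdf15 (0.58), Pmepa1 (-0.43) and Itgav (-0.43). The edgeR adjusted p of these was 0.537 or more.

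**Figure D5:**
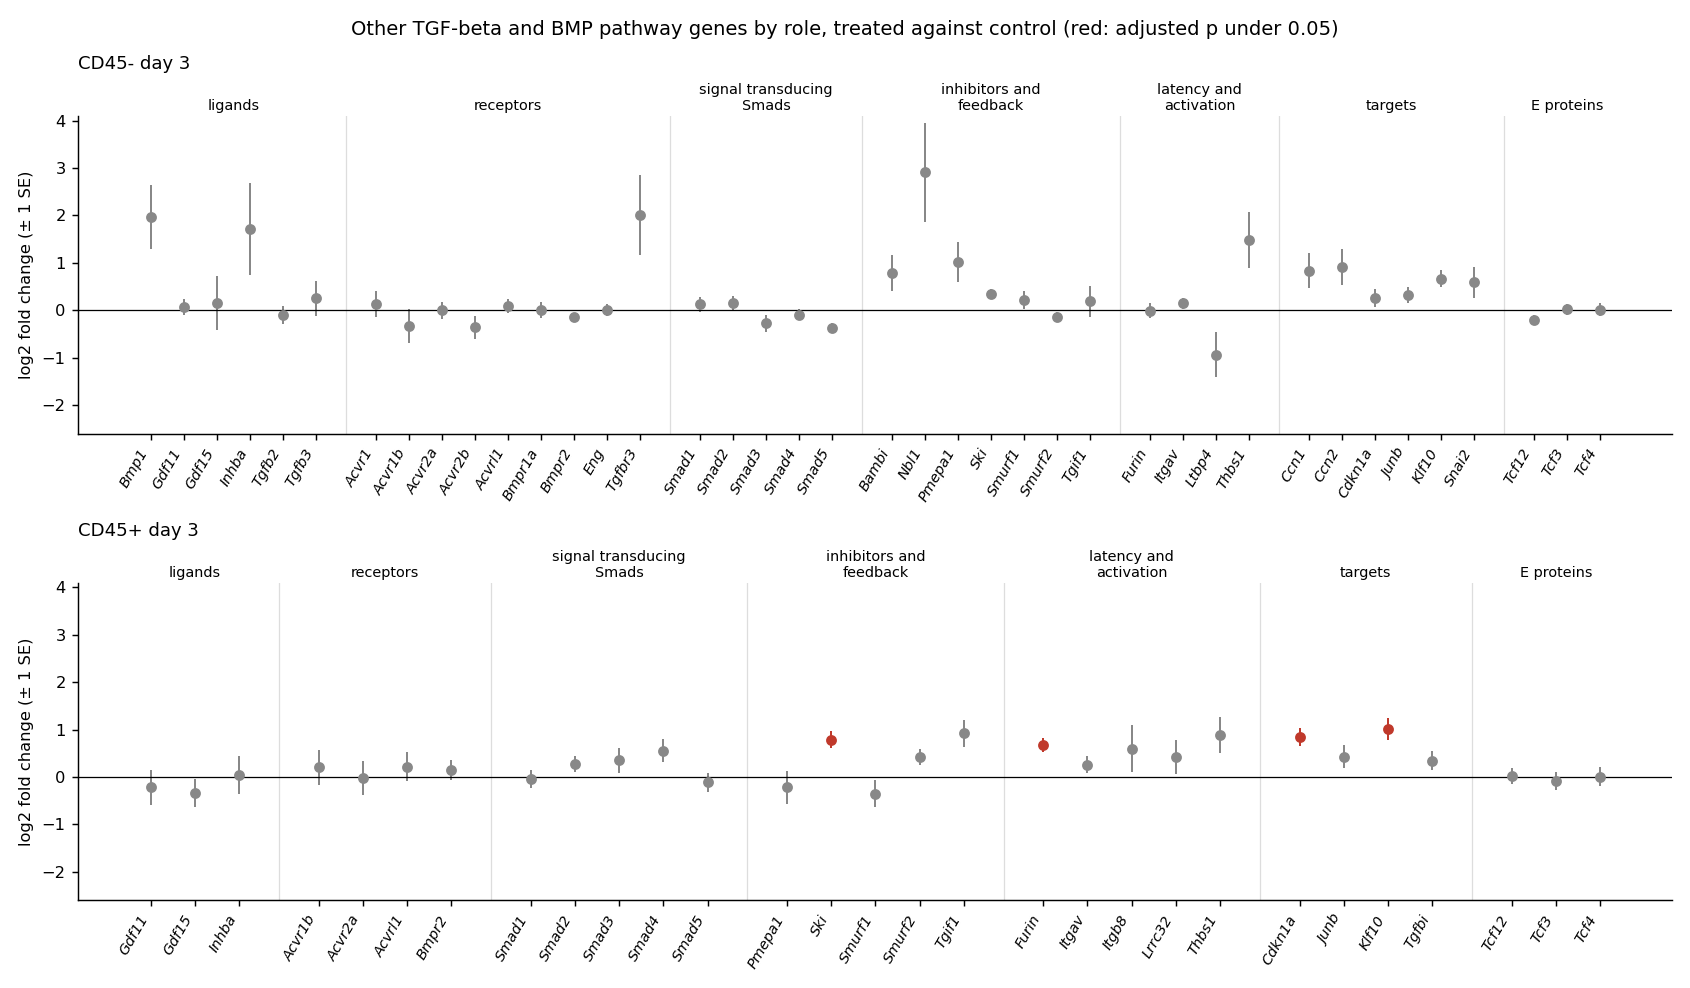
Log2 fold change (point) with 1 SE (bar) of treated against control tumors on day 3 for the wider pathway genes reported here, grouped by role, in CD45- cells (top) and CD45+ cells (bottom), with called genes in red. No gene is red in CD45- cells, where Klf10 is at 0.66, and 4 are red in CD45+ cells, where Klf10 is at 1.01.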

How the data were processed

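Raw counts of 70 libraries were deposited by the authors in 4 tables, by fraction and day. Per the methods and labels, 3′ tag reads were trimmed with Trim Galore 0.5.0, aligned to GRCm38 with STAR 2.6.0, collapsed by unique molecular identifier and counted with featureCounts. The strand setting is not given in the sources used here. Each table held 55487 named genes, 120 lines of which shared a symbol. The unnamed line of column totals in each CD45+ table was left out, and 0 columns lacked a sample. Groups came from the sample titles. No 2 libraries of the same fraction, day and group agreed within sampling noise (smallest chi-square per degree of freedom 1.99 over 208 pairs).

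Each table was fitted on its own with edgeR 4.0.16 in R 4.3.3 (TMM, filterByExpr with a minimum count of 10 and a minimum total of 15, quasi-likelihood test, Benjamini-Hochberg adjustment over all genes tested, threshold 0.05). The day difference in CD45+ cells was an interaction term over both tables. Alternatives were DESeq2 1.42.0, library totals, no filter, a replicate block and leaving out each library. The fits without libraries rich in fibroblast (1000 CPM) or S100a8 and S100a9 (5000 CPM) transcripts, and all alternatives of the day difference, were chosen after seeing the data. The code was tested on simulated data. The 9 genes, the pathway list and the marker lists were chosen with earlier results of these data known. Pathway genes named are, in each comparison, the called ones up to 5 or otherwise the 5 of smallest p. A gene of that list is not reported here by name or value and enters only counts and medians over the list. For likeness, the 5 genes of highest r with Id3 and with Smad7 are named. Same-numbered libraries of different groups had r above 0.1 in 20 of 49 pairs, not in all, and no label ties a number to a mouse, so replicate numbers were not taken as pairs. Depth limits Tgfb1 in CD45- cells and Smad6 to few counts.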

Additional observations from a re-analysis of the deposited data

Results flagged for a closer look

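In CD45+ cells the treated effect on Id1 differed between days, by -1.70 on the log2 scale for day 7 minus day 3, and that on Tgfbr1 by -1.38, both past the threshold of the interaction test. Both calls were lost with library totals.

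Smad6 stood apart in a single library of 2 CD45+ day 3 groups. Control replicate 2 had 0.551 CPM, from 1 count, where the other controls had 0, and treated replicate 3 had 1.81 CPM, from 3 counts, where the other treated libraries had 0.626 to 0.843 CPM. Both gaps rest on 1 to 3 counts per library. Of 80 groups examined for such a library, 2 had one, and chance gives about 1 in 20.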

How the results depend on the processing

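DESeq2 called 46, 13 and 138 of all genes in CD45- cells on day 3 for treated against control, abscopal against control and treated against abscopal, 11 for abscopal against control in CD45- cells on day 7 and 5 for abscopal against control in CD45+ cells on day 3. It called 1 pathway gene in CD45- cells on day 3 for treated against control and 1 for treated against abscopal, and 2 members in CD45+ cells on day 3 for treated against abscopal. Library totals gave 25 genes in CD45- cells on day 3 for treated against abscopal, and 0 members and 1 pathway gene for the same comparison in CD45+ cells. Without the filter on low counts, all genes called in the 3 comparisons were 312, 15 and 451 in CD45- cells on day 3, 165, 398 and 8 on day 7, 1244, 153 and 1022 in CD45+ cells on day 3 and 32, 102 and 17 on day 7, with 628 for the difference between days. Members called were then 5 and 5 in CD45- cells on day 3, against control and against abscopal, and 3 in CD45+ cells on day 3 against abscopal. Pathway genes called were 7 and 8 in CD45- cells on day 3, 2 and 11 on day 7 for treated and abscopal against control, and 1 in CD45+ cells on day 7 for treated against control.

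Replicate numbers were not taken as pairs: over 49 same-numbered pairs r ran from -0.38 to 0.457, above 0.1 in 20, and in 16 the own number correlated best. For treated against abscopal in CD45- cells on day 3, r ran from -0.065 to 0.338, and 4 of 7 matched best. With the replicate block, the calls were 26, 1 and 117 genes in CD45- cells on day 3, 0 for abscopal against control on day 7, and 1256 and 1 in CD45+ cells on day 3 for treated and abscopal against control. Among members it changed 2 calls in CD45+ cells on day 3, treated against abscopal, losing Skil and adding Id1. In CD45- cells on day 3 it put Id2 (against control) and Smad7 (against abscopal) past the threshold. The genes were chosen from those libraries, so nothing is read from this.

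With low fibroblast markers, treated against control called 0 genes and 0 members in CD45- cells on day 3, treated against abscopal 5 genes and 0 members, and abscopal against control on day 7 1 gene. With low S100a8 and S100a9, the CD45+ day 3 counts were 312 genes, 0 members and 2 pathway genes against control and 103, 0 and 0 against abscopal. These fits hold fewer samples.

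Signs turned for Tgfbr2 in CD45- cells with low fibroblast markers, to -0.45 (day 3, against control), -0.59 (day 3, against abscopal) and -0.46 (day 7, against control), and for Tgfb1 in abscopal against control tumors on day 7, to -0.0495 with the block and -0.77 with low fibroblast markers. In CD45+ cells on day 3, treated against control, Id2 became -0.13 with library totals and -0.0691 with the block. Id3 became -0.20, -0.0528, -0.0765 and -0.056 with library totals, no filter, the block and low S100a8 and S100a9, and Smad7 became -0.20, -0.0518, -0.0175 and -0.0606. Values under 0.3 in size were not followed here, other than these 3 genes in CD45+ cells. Among those not followed, in CD45- cells on day 7, treated against control, Id3 became -0.08 with low fibroblast markers and Id1 became 0.23 with the block. With library totals the median of all genes in CD45+ cells on day 3, treated against control, was -0.22. The cause was not tested.

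Leaving out 1 library at a time, all genes called ran from 1 to 17, 0 to 1 and 0 to 99 in CD45- cells on day 3, from 0 to 26 for treated and 1 to 136 for abscopal against control on day 7, and from 334 to 1103, 0 to 1 and 264 to 862 in CD45+ cells on day 3. Members called ran from 0 to 4 (treated against control) and 0 to 4 (treated against abscopal) in CD45- cells and from 1 to 3 and 0 to 3 in CD45+ cells on day 3. Pathway genes called ran from 0 to 1 for abscopal against control in CD45- cells on day 7, and from 2 to 6 and 2 to 5 in CD45+ cells on day 3. The difference between days ran from 30 to 531 genes, from -1.91 to -1.43 for Id1 and from -1.51 to -1.15 for Tgfbr1. Signs turned for Tgfbr2 in CD45- cells on day 7 (-0.45 to 1.09) and, in CD45+ cells on day 3, Id2 (-0.0129 to 0.16), Id3 (-0.11 to 0.19) and Smad7 (-0.11 to 0.17). Among the smaller values not followed, treated against control, signs also turned for Id3 (-0.07 to 0.23) and Smad7 (-0.15 to 0.006) in CD45- cells on day 7. They turned for Tgfbr2 (-0.18 to 0.05) in CD45+ cells on day 3. Of the followed single-gene values refitted on all libraries or a subset, 188 kept direction and side of the threshold, 13 passed it newly, 15 lost it and 15 changed sign, and without 1 library the numbers were 800, 9, 54 and 13. Of the counts of calls, 49 moved and 124 did not in the first kind of refit, and 87 and 566 in the second.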
